A study of Mus musculus with 46 samples.

Results

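The 10 genes described here are transcripts by which tissue macrophages and the Kupffer cells of the liver are recognised: Adgre1, Cd68, Csf1r, Clec4f, Cd5l, Lyz2, Itgax, Timd4, Marco and Trem2. They were taken by gene symbol from the 55487 genes listed in each library, and all 10 were found. The study sequenced RNA of mouse islets and mouse livers after targeting Tfam, Clec16a or the mitofusins, and its title names retrograde signals of mitochondria and the identity and maturity of metabolic tissues. It holds 46 libraries in 11 groups and 3 experiments. Among the Tfam islets, labelled by sex, females gave 5 control and 4 Tfam KO libraries, and males gave 3 control and 2 Tfam KO libraries. Of the Clec16a experiment there were 4 control and 4 KO islet libraries on a diet labelled RFD and 6 control and 5 KO islet libraries on a diet labelled HFD, abbreviations left unexplained in the labels. The liver experiment had 6 libraries labelled control, 4 labelled Mfn DKO and 3 labelled Tfam KO, and the descriptions of all 3 groups, controls included, carry the letters AAV. The promoter or Cre line behind each knockout, the age of the mice and the sex of the liver donors are not given in the sources used here, and each library is titled a biological replicate. Islets were cultured overnight before RNA was taken, and livers were flash frozen.

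Macrophages are phagocytes that live in nearly every tissue, and many resident populations are seeded before birth and renew themselves locally. Signals through the receptor encoded by Csf1r keep them alive. The liver's residents, the Kupffer cells, sit in the sinusoids and carry a set of surface proteins of their own, among them the lectin encoded by Clec4f. Islets hold a small resident population of macrophages beside their endocrine cells, and Trem2 and Itgax are known from macrophages that take up lipid or cell debris in both tissues. In RNA from whole tissue, fewer cells of a type and less RNA per cell cannot be told apart.

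Total counts lay between 55223041 and 83342809 for the Tfam islets, 16235173 and 55810879 for the Clec16a islets and 41961114 and 56894510 for the livers. Tfam was lower in the libraries labelled Tfam KO (in islets of both sexes a log2 fold change of -1.21, in livers of -2.004), and so were Mfn1 (-2.003) and Mfn2 (-2.04) in the Mfn DKO livers. For Clec16a no decrease was seen in its own knockout libraries, with a log2 fold change of 0.13 on RFD and 0.08 on HFD, so these are called by their label. The defining markers of the tissues followed the labels, in CPM (counts scaled to the library size, itself scaled by TMM). The β-cell hormone gene Ins1 ran from 12090 CPM upward in islets and was at 0 in all 13 livers. The hepatocyte gene Alb ran from 17650 CPM upward in livers and stayed at or below 1.91 CPM in islets. In the livers, Tfam KO replicate 2 stood apart, with 23540 CPM summed over 8 hepatocyte genes against 93900 to 137800 in the controls. In the islets, Tfam control female replicate 3 stood apart in several of the 10 genes, and where leaving out either library ended a call named here, this is stated beside it.

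The upstream sequences of 3 genes on which the results turn are shown first, each the 250 bases before the gene's start (RefSeq, GRCm38.p6), 5′ to 3′ on the gene's own strand. Marco (chromosome 1, 120474538 to 120505024, minus strand, GRCm38) was the member that changed in the livers. Trem2 (chromosome 17, 48346401 to 48354147, plus strand) and Cd68 (chromosome 11, 69664213 to 69666153, minus strand) changed in the Tfam islets. Capitals mark 3 short motifs on either strand: the PU box GAGGAA, bound by the myeloid factor PU.1, the half-site TGCTGA of MAF factors, and the half-site AGGTCA used by nuclear receptors such as LXR.
Marco, chr1:120505025-120505274, minus strand: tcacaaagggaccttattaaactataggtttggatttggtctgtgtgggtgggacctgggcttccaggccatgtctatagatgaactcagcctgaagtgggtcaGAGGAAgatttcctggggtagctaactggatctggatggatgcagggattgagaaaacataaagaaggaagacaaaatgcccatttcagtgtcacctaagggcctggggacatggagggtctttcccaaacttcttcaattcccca
Trem2, chr17:48346151-48346400, plus strand: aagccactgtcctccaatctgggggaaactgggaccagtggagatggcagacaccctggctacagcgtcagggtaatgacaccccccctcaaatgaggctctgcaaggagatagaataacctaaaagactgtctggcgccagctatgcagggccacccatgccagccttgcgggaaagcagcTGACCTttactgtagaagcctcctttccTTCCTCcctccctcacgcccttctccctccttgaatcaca
Cd68, chr11:69666171-69666420, minus strand: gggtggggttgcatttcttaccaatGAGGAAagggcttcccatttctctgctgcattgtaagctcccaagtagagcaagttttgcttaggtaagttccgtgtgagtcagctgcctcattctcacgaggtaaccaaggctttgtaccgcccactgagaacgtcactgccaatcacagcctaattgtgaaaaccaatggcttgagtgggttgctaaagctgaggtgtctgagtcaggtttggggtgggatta
A PU box lay 146 bases before the start of Marco, 225 bases before that of Cd68 and, in reverse complement, 40 bases before that of Trem2. The window of Clec4f (chromosome 6, 83644542 to 83656187, minus strand), not shown, held no PU box but a MAF half-site 199 bases and a reversed AGGTCA 22 bases before its start, and the Trem2 window also held a reversed AGGTCA at 68 bases. Windows were at hand for 8 of the 10 genes, all but Adgre1 and Csf1r. The PU box was in 4 of them (Cd5l, Cd68, Marco, Trem2), the MAF half-site in 4 (Cd5l, Clec4f, Lyz2, Timd4) and the AGGTCA half-site in 3 (Clec4f, Timd4, Trem2). Of 32851 windows of this length in the table, 23.3% held the PU box, 16.1% the MAF half-site and 14% the AGGTCA half-site. A match to 6 letters describes the sequence and is not a bound site.

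Levels were first set side by side across all groups, per gene length, in the deposited TPM (transcript abundance scaled by gene length and library). Tissue and experiment cannot be told apart here, so islets and livers were not tested against each other. Liver libraries were led by the Kupffer cell genes. Cd5l, which encodes a secreted scavenger protein, had a median of 247.4 TPM and Clec4f 226.4 TPM, followed by the lysozyme gene Lyz2 at 181.2 TPM. Marco, a scavenger receptor for bacteria and particles, had a median of 34.04 TPM, the lysosomal glycoprotein gene Cd68 32.63 TPM, Csf1r 30.05 TPM, Adgre1, which encodes the F4/80 antigen, 25.3 TPM and Timd4, a receptor for phosphatidylserine on dying cells, 14.61 TPM. Trem2, a lipid-sensing receptor, at 1.07 TPM and the integrin gene Itgax, which encodes CD11c, at 1.01 TPM came last.

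Islet libraries had another order. Lyz2 led with a median of 29.95 TPM over 33 libraries, ahead of Cd68 at 8.84 TPM, Csf1r at 5.88 TPM, Adgre1 at 3.20 TPM, Itgax at 2.47 TPM and Trem2 at 0.63 TPM. The Kupffer cell genes were at or near 0: the islet median was 0.038 TPM for Cd5l and 0 for Clec4f, Timd4 and Marco. Itgax was the only member whose median was lower in livers than in islets, at 0.41 times the islet median. For Adgre1, Cd68, Csf1r, Clec4f, Cd5l and Timd4 the lowest liver library lay above the highest islet library, for Cd68 by little (18.36 against 18.32 TPM), while Lyz2, Itgax, Marco and Trem2 overlapped between the tissues. Over the 21451 genes that passed the filter on low counts in any of the 3 experiments, 11.8% had their lowest liver value above their highest islet value. Clec4f was the sharpest of these. It had 2 counts in all over 33 islet libraries, 1 each in 2 of them, against 6415 or more in every liver. Taking 3 counts in the shallowest islet library as the most that a count of 0 allows, Clec4f was at least 739.4-fold higher in every liver than that limit.

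**Figure D1:**
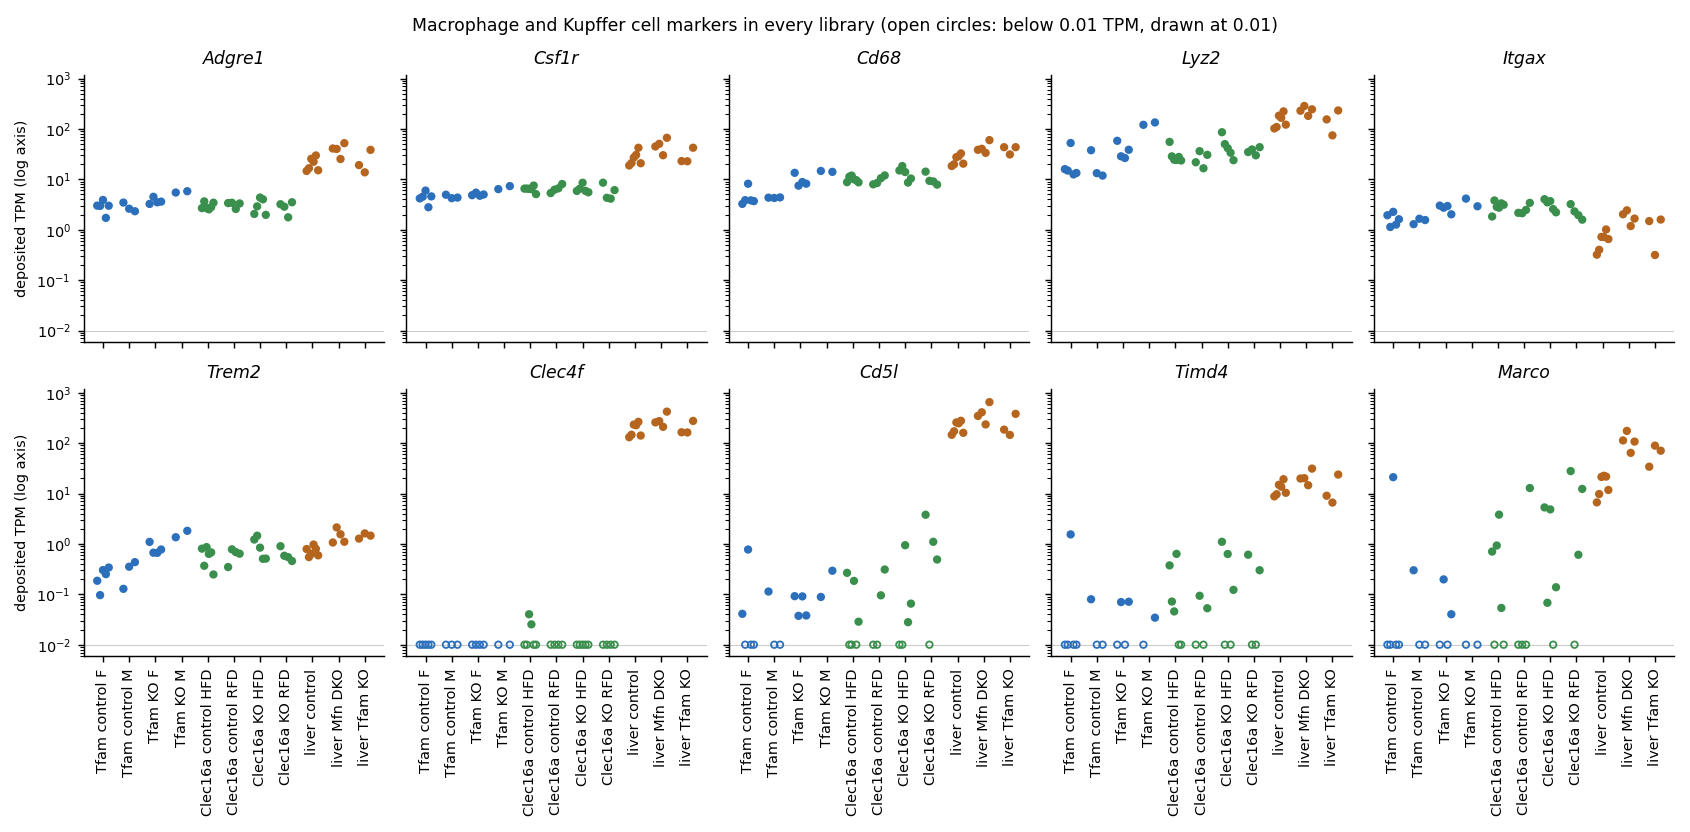
Deposited TPM of each of the 10 genes in every library, on a log axis, with the 11 groups along the horizontal axis (blue Tfam islets, green Clec16a islets, brown livers). Clec4f, Cd5l and Timd4 separate livers from islets, while Itgax and Trem2 lie at like levels in both tissues and Marco scatters from 0 upward among islet libraries.

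Ordered by mean TPM over the 11 groups, the 3 liver groups came first for 8 of the genes, always as Mfn DKO, Tfam KO, control. Neighbours in these orders were mostly not apart: among the 10 neighbouring pairs of each gene, the ranges did not overlap in 2 pairs for Adgre1, in 1 pair for Cd68, Csf1r, Clec4f, Cd5l, Lyz2, Timd4 and Marco, and in none for Itgax and Trem2. Trem2 and Itgax both had their highest mean in the Tfam KO male islets. The order of Tfam KO and control livers depends on the scale: with TMM-scaled CPM, used for the tests, the Tfam KO mean lay below the control mean for Adgre1, Csf1r, Clec4f, Cd5l, Lyz2 and Timd4.

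In the Tfam islets, the question was whether macrophage transcripts differ when this factor, needed to transcribe and package mitochondrial DNA, is targeted. Over both sexes, 3 of the 8 members tested rose (Trem2, Cd68 and Itgax), 1, Marco, was called lower, and Adgre1, Csf1r, Lyz2 and Cd5l did not pass the test. Over all 19752 genes tested, 20.9% were called, 11.6% higher and 9.29% lower, beside 3 of 8 members called higher and 1 of 8 called lower. The median log2 fold change of the 8 members was 0.36, and that of all genes -0.01. Calls are from edgeR's quasi-likelihood test at a Benjamini-Hochberg adjusted p of 0.05 or less, and CPM values here use library sizes scaled by TMM. Clec4f and Timd4 did not pass the filter on low counts.

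Trem2 was low in the controls, with 0.398, 0.214, 0.700, 0.746 and 0.763 CPM in the females and 0.283, 0.817 and 1.01 CPM in the males. The knockouts had 1.87, 1.20, 1.17 and 1.39 CPM in females and 2.53 and 3.18 CPM in males. All 6 knockout libraries lay above all 8 controls. The log2 fold change was 1.58 ± 0.30 (SE, adjusted p = 0.00123 by edgeR), a 2.99-fold difference, and it was called under each alternative tried.

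Cd68, a general lysosomal marker of phagocytes, had 1.77, 2.17, 4.80, 2.88 and 2.10 CPM in control females and 2.42, 2.50 and 2.58 CPM in control males. In the knockouts it had 5.84, 3.41, 3.94 and 3.73 CPM in females and 6.93 and 6.24 CPM in males. All control libraries but female replicate 3 lay below all knockouts. Cd68 rose by a log2 fold change of 0.91 ± 0.21 (SE, adjusted p = 0.00635 by edgeR), and by 1.11 (adjusted p = 0.0001) without control female replicate 3.

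Itgax moved less. Its controls had 4.04, 2.44, 5.09, 3.65 and 3.51 CPM in females and 2.76, 3.71 and 3.50 CPM in males, and its knockouts 4.99, 4.76, 5.02 and 3.52 CPM in females and 7.49 and 4.95 CPM in males, so the groups overlapped. The log2 fold change of 0.51 ± 0.17 (SE) had an adjusted p of 0.0433 by edgeR. That call was lost on leaving out any 1 of control females 2 and 5, control males 1, 2 and 3, knockout females 1, 2 and 3 and knockout males 1 and 2, where the adjusted p ran from 0.0627 to 0.145; it stood without control female replicate 3 (0.0108).

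Lyz2 was carried by a few libraries. It had 9.09, 8.79, 32.4, 9.89 and 7.97 CPM in control females, 22.2, 8.16 and 7.31 CPM in control males, 26.4, 13.7, 12.4 and 18.4 CPM in knockout females and 59.7 and 62.4 CPM in knockout males. Both knockout males lay above all other libraries, and 2 controls lay above some or all knockout females. Its log2 fold change of 1.09 ± 0.41 (SE) missed the threshold (adjusted p = 0.0727 by edgeR), and without control female replicate 3 it was 1.5 with an adjusted p of 0.00145. It was also called with no filter on low counts (adjusted p = 0.0227), with an exocrine score as a covariate (0.0314) and with no term for sex (0.0441). Lyz2 has a near-identical neighbour, Lyz1, so the split of reads between them is uncertain.

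Adgre1 and Csf1r showed no call: Adgre1 had a log2 fold change of 0.22 ± 0.16 and Csf1r of -0.04 ± 0.11 (SE). Counts set against Csf1r within the same library need no scaling between libraries. Trem2 had 1.83 to 8.59 counts per 100 counts of Csf1r in the 8 controls and 10.55 to 21.27 in the 6 knockouts, and Cd68 had 16.96 to 29.78 in the controls and 29.94 to 60.54 in the knockouts. Neither of these 2 ratios overlapped between the genotypes. Itgax had 20.88 to 38.58 counts per 100 of Csf1r in controls and 33.1 to 53.92 in knockouts, Lyz2 had 62.29 to 200.6 and 120 to 429.9, and Adgre1 had 30.07 to 40.31 and 37.63 to 47.96, and all 3 overlapped. On other scalings all genes shift together in this comparison: the median log2 ratio over genes rose by 0.21 with CPM on plain totals and by 0.39 with deposited TPM, and the log2 ratio of mean Csf1r levels changed sign with both, to 0.17 and 0.34. Csf1r also overlaps a gene on the opposite strand, Hmgxb3, and whether counting used strand is not given in the sources used here.

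**Figure D2:**
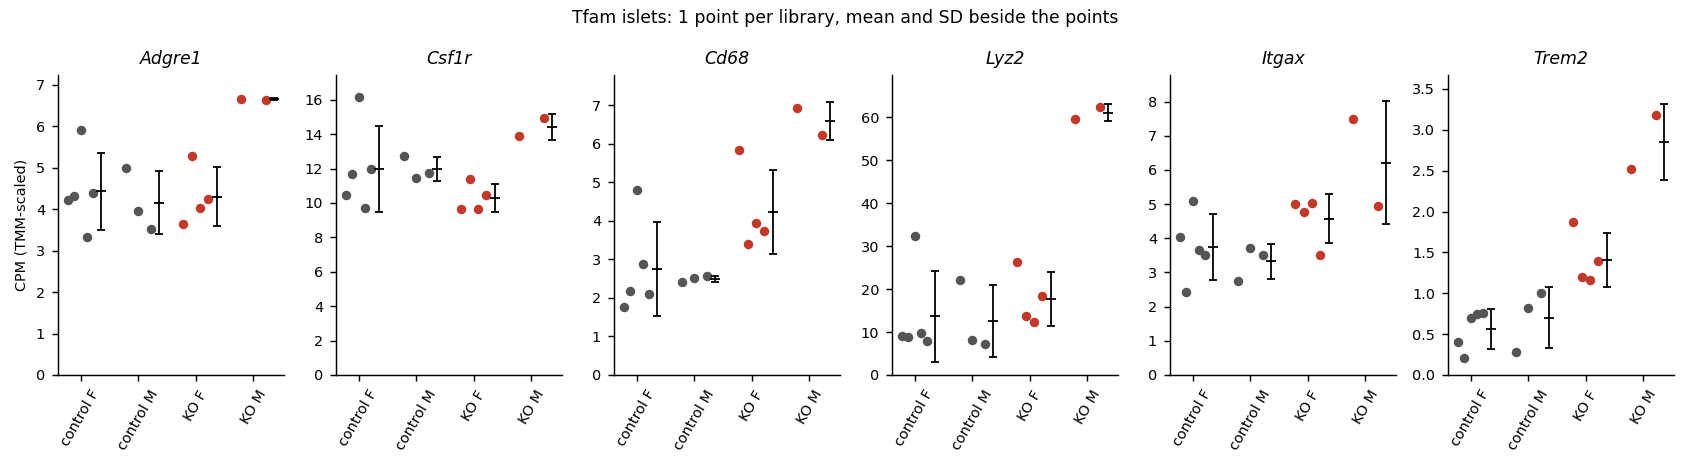
TMM-scaled CPM of 6 members in the Tfam islets, 1 point per library, with the mean and SD of each group beside its points (control F n = 5, control M n = 3, KO F n = 4, KO M n = 2; grey controls, red knockouts). Trem2 separates all knockouts from all controls, and both knockout males are high in Lyz2.

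By sex, the larger differences were in males. In females 1 of the 8 tested members was called, Trem2 (log2 fold change 1.31 ± 0.37, adjusted p = 0.0323 by edgeR), where 10.8% of all genes were called and 6.67% were called higher. That call was lost without control female 1 or 2 or knockout female 1, 3 or 4 (adjusted p 0.0543 to 0.101) and with an exocrine score as a covariate, where the log2 fold change was 1.23 (adjusted p = 0.0685). In males 4 were called higher: Lyz2 (2.28 ± 0.57), Trem2 (2.02 ± 0.48), Cd68 (1.40 ± 0.33) and Itgax (0.90 ± 0.26), where 8.93% of all genes were called and 5.24% were called higher. With 2 knockout males, the count fell to 0 without knockout male 1 or 2, to 1 without control male 2 and to 2 without control male 3. The test of the difference between the sexes, the interaction of genotype with sex, called none of the 8 members (3 had an unadjusted p under 0.05) and, by edgeR, 0% of all genes (1230 had an unadjusted p under 0.05, and DESeq2 called 34, no member among them). A larger change in males is therefore not shown.

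Marco in these islets was a matter of 1 library. Control female replicate 3 had 1005 counts of Marco (19.01 CPM), control male replicate 1 had 20, knockout females 2 and 4 had 10 and 2, and the other 10 libraries had 0. The call (adjusted p = 0.0407 by edgeR over both sexes) went with that library: without it the log2 fold change was -0.01 with an adjusted p of 0.999. It was also lost on leaving out any single knockout (adjusted p 0.0604 to 0.0930), and without control male replicate 1 Marco did not pass the filter. The same library had 83 counts of Timd4 and 39 of Cd5l, where the other 13 Tfam islet libraries had at most 6 and 16. Clec4f was at 0 there, and the 12 further Kupffer cell genes summed to 79.1 CPM, within the 68.6 to 130.9 CPM of the control females. Its 8 T and NK cell genes summed to 9.59 CPM against 1.42 to 4.58 in all other Tfam islet libraries, and the part of other cells in its Marco level was not tested.

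Other genes of the macrophage program were read from fixed lists. Of 24 general macrophage genes tested in both sexes together, 1 rose and none fell (median log2 fold change 0.14, against -0.01 for all genes): Sirpa (0.36), which encodes a receptor for the "do not eat me" signal CD47. Without control female replicate 3, 4 of them rose. In males 6 rose, led by Mpeg1 (0.94), the pore-forming perforin of phagocytes, with Sirpa (0.45) and the lysosomal protease gene Ctss (0.63), a count that ran from 0 to 7 over the alternatives. Of 9 genes of lipid-associated macrophages, 3 rose: the protease genes Ctsk (1.34) and Mmp12 (0.88) and the galectin gene Lgals3 (1.33), with a list median of 0.25 and 1 to 5 called over the alternatives. Among 10 further Kupffer cell genes, Hmox1, which encodes the haem-degrading enzyme, rose from a mean of 4.52 ± 1.14 CPM in 8 controls to 26.2 ± 3.77 CPM in 6 knockouts (SD), while the iron exporter gene Slc40a1 (-0.99) and the LXR gene Nr1h3 (-0.38) fell, with 1 further gene of the list. Of 8 growth factors and chemokines, the fractalkine gene Cx3cl1 (0.72) and Mif (0.58) rose and Csf1, a ligand of the Csf1r receptor, fell by 0.36 on the log2 scale, the last not called without control female replicate 3. Several of these genes are also transcribed by endocrine cells, and their cell of origin was not tested. Among markers of other immune cells, Cd79a, a B cell receptor subunit, fell from 11.05 ± 2.13 CPM (8 controls, SD) to 2.62 ± 0.945 CPM (6 knockouts, SD), and the dendritic cell lectin gene Cd209a rose (2.07), while no gene of the monocyte, neutrophil, MHC class II or T and NK cell lists was called, nor any of the exocrine list or of the 8 genes of myeloid signalling. Of 12 lysosomal genes Hexa and Npc1 rose and Lamp2 fell. Outside the immune lists, 1 endothelial and 2 fibroblast genes rose and 1 gene of the hepatocyte list fell. All 8 β-cell genes fell.

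In the Clec16a islets, the comparisons ask whether genotype or diet moves the same genes. None of the 9 members tested was called in any of the 5 comparisons, by edgeR or by DESeq2. Against this, 7.52% of 17254 genes were called for the libraries labelled KO on RFD, 9.57% on HFD, 0.0406% for diet in controls, 0.0116% for diet in KO and 0% for the interaction of genotype with diet (406 genes had an unadjusted p under 0.05 there, and DESeq2 called 20). At an unadjusted p under 0.05 there was 1 member on RFD and 1 for diet in KO, Cd5l in both cases, and none in the other 3 comparisons. Of all 17254 genes, 3866 on RFD and 946 for diet in KO had such a p by edgeR. No alternative tried called a member.

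The well-measured members differed little. On RFD, Csf1r had 15.1, 19.7, 17.3 and 20.6 CPM in controls and 23.4, 11.7, 11.1 and 16.2 CPM in KO. On HFD it ran from 13.5 to 21.2 CPM (median 18.9, n = 6) in controls and had 15.0, 15.7, 17.8, 15.7 and 14.6 CPM in KO. The groups overlapped on both diets, with log2 fold changes of -0.23 ± 0.19 on RFD and -0.20 ± 0.16 on HFD (SE). Cd68 had log2 fold changes of 0.01 ± 0.21 and 0.19 ± 0.18, Adgre1 of -0.23 ± 0.24 and -0.15 ± 0.21, Itgax of -0.22 ± 0.22 and -0.08 ± 0.19, and Trem2 of -0.07 ± 0.41 and 0.38 ± 0.35 (RFD, then HFD). Lyz2 scattered more, from 9.88 to 26.3 CPM on RFD and from 14.1 to 50.1 CPM on HFD, with log2 fold changes of 0.40 ± 0.36 and 0.39 ± 0.31. Intervals of this width do not show that the genotypes are alike.

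Marco, Timd4 and Cd5l were uneven among libraries of both genotypes, with 7, 8 and 8 of the 19 libraries at 0. Marco had 0, 0, 0 and 430 counts in the 4 RFD controls and 445, 0, 23 and 619 counts in the 4 RFD KO libraries. On HFD it had 15, 0, 18, 117, 2 and 0 counts in controls and 98, 1, 170, 0 and 2 counts in KO. Timd4 reached at most 25 counts, in a KO library on HFD. Cd5l had 64, 0, 44 and 26 counts in the RFD KO libraries and at most 11 in the RFD controls, which gave the largest log2 fold change of the members (3.66 ± 1.37, adjusted p = 0.111 by edgeR). Clec4f had 1 count each in control HFD replicates 3 and 4 and 0 in the other 17 libraries. Levels from 0 to 25.4 CPM within 1 group leave a difference between groups not detectable with these libraries.

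**Figure D3:**
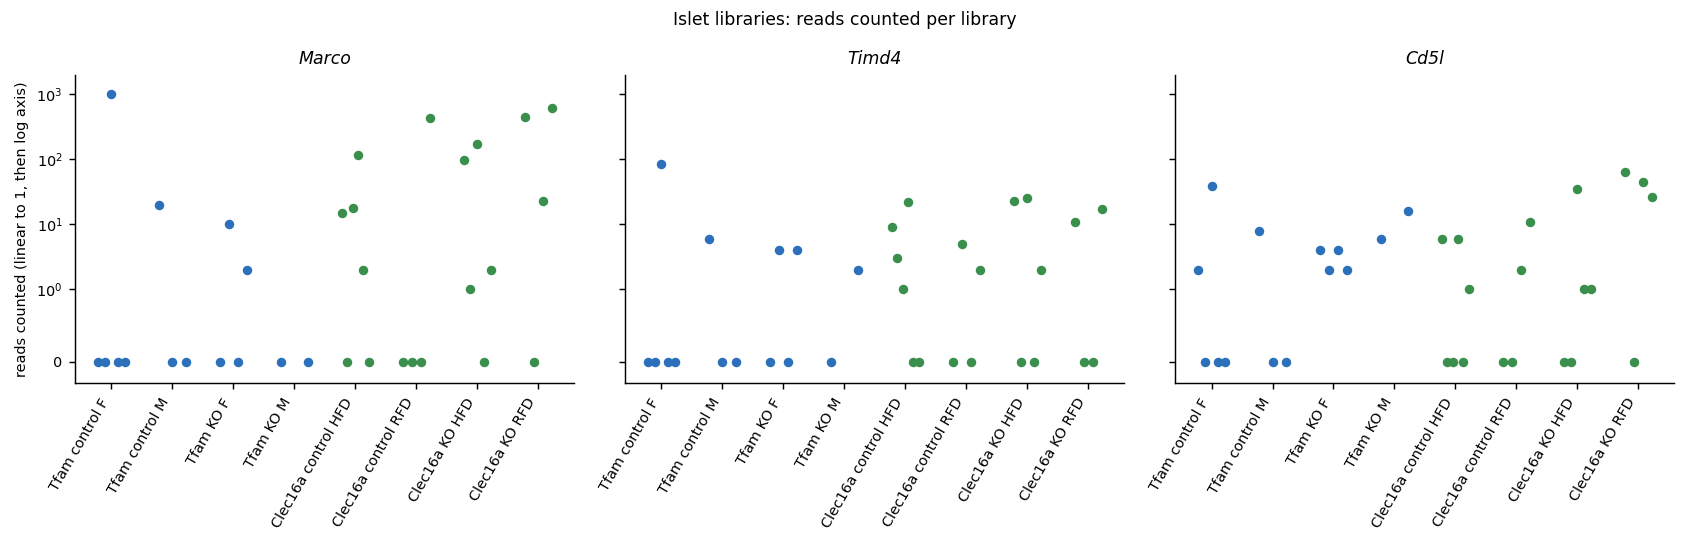
Reads counted for Marco, Timd4 and Cd5l in each of the 33 islet libraries (vertical axis linear to 1, then log; 8 groups on the horizontal axis). For Marco 17 of the 33 libraries lie at 0, and single libraries of control and KO groups stand far above the rest of their group, the highest at 1005 counts.

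Around these genes some of the list members did change in the Clec16a libraries. Of 25 general macrophage genes, 2 fell on both diets: Sirpa (-0.68 on RFD, -0.48 on HFD) and the complement gene C1qa (-1.02 and -0.61). The growth factor gene Csf1 fell on both diets, with log2 fold changes of -0.98 on RFD and -1.001 on HFD. Spp1, which encodes osteopontin and is on the lipid-associated list, rose from 19.1 ± 4.42 to 112.1 ± 92.1 CPM on RFD (SD, n = 4 each) and from 22.9 ± 6.04 (SD, n = 6) to 77.7 ± 31.0 CPM (SD, n = 5) on HFD. Hmox1 rose on HFD (0.61), where Cd63 (-0.47) and the lysosomal genes Hexa, Lamp1 and Lamp2 fell. On RFD Nr1h3 (0.47) and the dendritic cell factor gene Zbtb46 (0.65) rose and the chemokine gene Cxcl16 (-0.50) fell. Cd79a fell on both diets (-2.33 and -1.40). Markers of other cells moved with the label as well. Of 8 endothelial genes tested, 6 were higher and 1 lower on either diet. Of 8 fibroblast genes, 2 were higher on RFD and 4 on HFD, Pdgfrb (0.70 and 0.64) and the collagen gene Col1a2 (0.66 and 0.87) on both diets, and the glucose transporter gene Slc2a2 of the β-cell list was lower (-1.47 and -1.27). Their part in these values was not tested.

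The livers were compared for the Mfn DKO, in which transcripts of the mitofusins, proteins that join mitochondria, were lower, and for the Tfam knockout, both against the same 6 controls. Marco rose in both and was the only member called in either. Of 17024 genes tested, 9.87% were called for Mfn DKO (5.23% higher) and 29.3% for Tfam KO (18.1% higher), so for the latter 1 of 10 members lies below the share over all genes. Marco ran from 6.30 to 19.6 CPM in the controls (median 14.7, n = 6). The Mfn DKO livers had 83.9, 127, 46.0 and 78.9 CPM, and the Tfam KO livers had 20.9, 41.2 and 50.6 CPM. No knockout library of either kind reached down to the controls, although the lowest Tfam KO library came close. The log2 fold change was 2.596 ± 0.36 for Mfn DKO (SE, adjusted p = 0.00144 by edgeR) and 1.44 ± 0.38 for Tfam KO (SE, adjusted p = 0.0154). The Mfn DKO call stood under each alternative, and the Tfam KO call was lost without Tfam KO replicate 2 (1.36, adjusted p = 0.0544) and with the replicate block (1.59, adjusted p = 0.0782), while it stood without replicate 3 (1.14, adjusted p = 0.0449).

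The other Kupffer cell genes did not pass the test in either comparison, although for Mfn DKO all 10 members had positive log2 fold changes. Clec4f ran from 158.6 to 287.6 CPM in controls (median 212.6, n = 6), with 246, 256, 194 and 398 CPM in Mfn DKO and 130, 96.7 and 253 CPM in Tfam KO. Cd5l ran from 146 to 248.7 CPM in controls (median 195.9), with 272, 315, 179 and 506 CPM in Mfn DKO and 121, 71.2 and 288 CPM in Tfam KO. Timd4 ran from 9.36 to 18.4 CPM in controls (median 12.2), with 16.6, 16.6, 11.8 and 25.9 CPM in Mfn DKO and 6.28, 3.45 and 19.2 CPM in Tfam KO. All 3 overlapped between the groups, with log2 fold changes of 0.32 ± 0.29, 0.68 ± 0.36 and 0.46 ± 0.38 for Mfn DKO and of -0.45 ± 0.32, -0.31 ± 0.40 and -0.42 ± 0.43 for Tfam KO (SE, none called). The same held for Adgre1 (0.65 ± 0.33 and -0.28 ± 0.38), Csf1r (0.56 ± 0.30 and -0.38 ± 0.34) and Lyz2 (0.35 ± 0.33 and -0.45 ± 0.37).

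Set against Clec4f within the library, where no scaling enters, Marco had 3.97 to 7.74 counts per 100 counts of Clec4f in the 6 controls. In the Mfn DKO livers it had 34.14, 49.78, 23.68 and 19.83, and in the Tfam KO livers 16.15, 42.65 and 19.98. The ratio in every knockout liver was above that in every control, and the 2 knockouts overlapped. Scalings differ most for Tfam KO against control livers: the median log2 ratio of all genes there rose by 0.43 with CPM on plain totals and by 0.63 with deposited TPM, and the log2 ratio of mean Marco levels with TPM was 2.05.

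**Figure D4:**
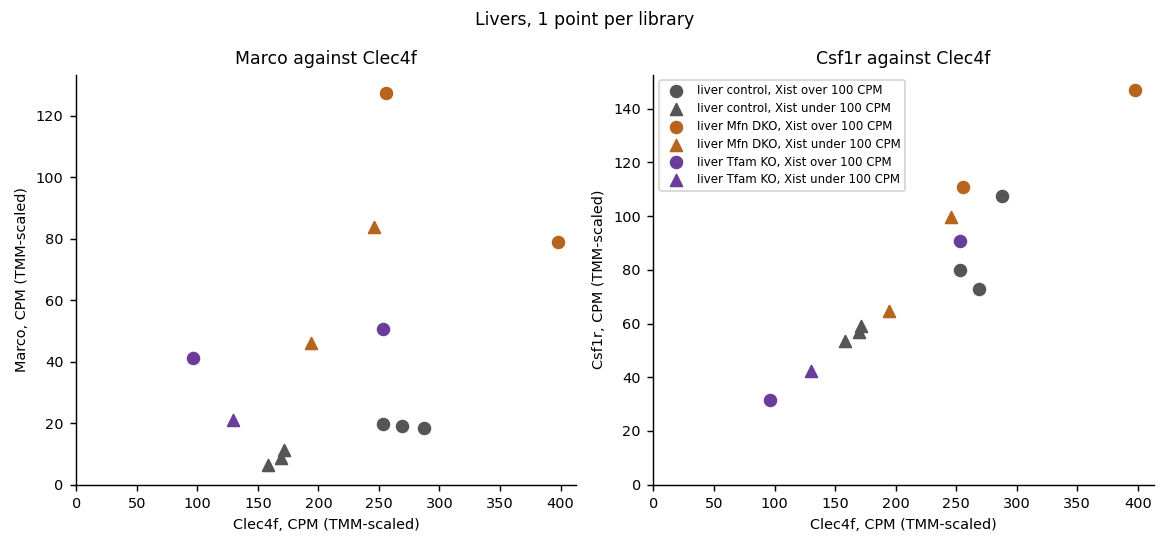
TMM-scaled CPM of Marco (left) and Csf1r (right) against Clec4f in the 13 livers, 1 point per library (grey control, brown Mfn DKO, purple Tfam KO; circles Xist above 100 CPM, triangles below). Csf1r rises with Clec4f, but Mfn DKO replicates 1 and 2 (99.8 and 110.7 CPM of Csf1r) lie above controls 3 and 4 (73.0 and 79.9 CPM). Their Clec4f levels are alike (245.7 and 255.9 against 269.1 and 253.6 CPM). In Marco every knockout lies above every control. The controls have 158.6 to 287.6 CPM of Clec4f. Tfam KO replicates 1 and 2 (129.8 and 96.67 CPM) and Mfn DKO replicate 4 (398.0 CPM) lie outside that range, so they have no control of like Clec4f level.

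The members associated with activation were low in the livers. Itgax ran from 0.753 to 2.14 CPM in controls (median 1.55, n = 6), with 3.75, 4.41, 2.12 and 3.05 CPM in Mfn DKO and 2.28, 0.364 and 2.84 CPM in Tfam KO. Trem2 ran from 1.27 to 2.18 CPM in controls (median 1.603), with 2.03, 3.98, 2.86 and 2.08 CPM in Mfn DKO and 2.02, 1.92 and 2.68 CPM in Tfam KO. For Mfn DKO the log2 fold changes were 1.23 ± 0.45 for Itgax (adjusted p = 0.0973 by edgeR) and 0.71 ± 0.23 for Trem2 (adjusted p = 0.0701), neither called. Without Tfam KO replicate 2, which shares the estimate of the spread, both were called (adjusted p = 0.0118 and 0.0454), as they were with DESeq2 and in a fit of only the compared groups, which also called Adgre1 (adjusted p = 0.0455). Calls over all genes rose too, from 1681 in the reported fit to 2870 with DESeq2 and 4338 once all Tfam KO livers were left out. Whether the members gained calls beyond this rise was not tested. For Tfam KO the changes were 0.35 ± 0.50 for Itgax and 0.40 ± 0.26 for Trem2. Cd68 had 0.52 ± 0.22 for Mfn DKO and 0.13 ± 0.25 for Tfam KO.

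The Tfam KO livers disagreed among themselves. Replicate 3 had 253 CPM of Clec4f, 46.2 CPM of Adgre1 and 90.9 CPM of Csf1r, within or above the range of the controls. On this TMM scale, replicates 1 and 2 had 19.8 and 10.7 CPM of Adgre1, below every control. The same held for Csf1r, at 42.5 and 31.7 CPM. The scale matters here: in deposited TPM the lowest Csf1r value was 22.81 in Tfam KO and 18.83 in controls. For Adgre1 the lowest values were 13.75 TPM in Tfam KO and 14.67 TPM in controls. Without replicate 3, Adgre1, Csf1r, Clec4f, Cd5l, Lyz2 and Timd4 were all called lower than in controls (log2 fold changes from -0.96 to -1.42, adjusted p 0.0058 to 0.0335 by edgeR) with Marco still higher, and without replicate 2 no member was called. The calls for these 6 genes therefore depended on replicate 3. Over all genes, the count called in this comparison ran from 2504 to 7330 without 1 library, against 4992 with all libraries. The count for the fit without replicate 3 is not given here. Whether the members gained calls beyond a rise over all genes was not tested. Between the knockouts, edgeR called no member for Tfam KO against Mfn DKO, and neither did DESeq2. Of all genes, edgeR called 0.294% (50 genes) and DESeq2 called 1087. At an unadjusted p under 0.05 by edgeR there were 5 of the 10 members and 3480 of 17024 genes. All 10 log2 fold changes of the members were negative, from -1.16 for Marco to -0.31 for Trem2. Without Tfam KO replicate 3, 6 members were called lower in that comparison. The count over all genes there ran from 24 to 4204 without 1 library, against 50 with all libraries. Here too the count for the fit without replicate 3 is not given, and a gain of the members beyond all genes was not tested.

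Part of the spread in the control livers went with Xist, the RNA of the inactive X chromosome. In 3 controls Xist lay between 380.3 and 614.9 CPM, and in the other 3 at most at 0.297 CPM. The Xist-high controls had 254 to 288 CPM of Clec4f and the Xist-low controls 159 to 172 CPM. For 9 of the 10 members, all but Trem2, the 3 Xist-high controls lay above the 3 Xist-low ones, with ratios of the means from 1.42 for Cd68 to 2.18 for Marco. Of 17024 genes tested, 15.8% lay above in this way, the hepatocyte gene Alb among them (87420 to 104500 against 58850 to 70520 CPM). Sex is not labelled for the livers, and batch or other differences between these libraries cannot be told apart from it. Within each Xist class Marco in the knockouts stayed above the controls. In the Xist-high class the controls had 18.4 to 19.6 CPM, Mfn DKO 78.9 and 127 CPM and Tfam KO 41.2 and 50.6 CPM, and in the Xist-low class the controls had 6.30 to 11.1 CPM, Mfn DKO 46.0 and 83.9 CPM and the single Tfam KO library 20.9 CPM. In the Xist-low class all 10 members lay above the controls in both Mfn DKO livers, as did 29% of all genes, and in the Xist-high class 6 did (Adgre1, Cd68, Csf1r, Cd5l, Itgax and Marco), as did 22.7% of all genes. On the TMM scale, the single Xist-low Tfam KO liver lay below its controls for 6 members and above them for 4. Those below were Adgre1, Csf1r, Clec4f, Cd5l, Lyz2 and Timd4. Of all genes, 35.9% lay below and 41.9% above. Both Xist-high Tfam KO livers lay above their controls for Marco and below them for Clec4f, with the other 8 members overlapping. For Clec4f replicate 2 had 96.67 CPM, while replicate 3 at 253.4 CPM barely differed from the lowest such control at 253.6 CPM. Of all genes, 19.1% lay below and 19.3% above. With the Xist level as a covariate Marco remained called (2.68, adjusted p = 6.01e-05 for Mfn DKO, and 1.22, adjusted p = 0.00432 for Tfam KO) and no further member was.

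Of the surrounding lists, that of lipid-associated macrophages held the most calls in the livers, 5 of 10 higher in Mfn DKO (median log2 fold change 0.93, all genes 0.02) and 7 of 10 higher in Tfam KO (median 2.004, all genes 0.03). Cd63, a tetraspanin of late endosomes, had 8.15 ± 1.53 CPM in the 6 controls and rose to 71.9 ± 21.1 CPM in the 4 Mfn DKO and 252.8 ± 210.7 CPM in the 3 Tfam KO livers (mean ± SD). Gpnmb, a lysosomal glycoprotein gene, lay at or below 0.454 CPM in all controls and had 4.81, 4.02, 11.6 and 2.28 CPM in Mfn DKO and 54.1, 359.1 and 1.65 CPM in Tfam KO. Without replicate 2, which had the largest values of both, Cd63 in Tfam KO livers still rose by a log2 fold change of 4.25 (adjusted p = 0.000485 by edgeR; 30.4 and 278.5 CPM in the other 2 livers), and 6 of the 10 genes rose in Tfam KO and 7 in Mfn DKO. Over all alternatives 2 to 7 and 0 to 7 did. In Mfn DKO the protease gene Mmp12 (3.17) and the lipoprotein lipase gene Lpl (2.05) rose too, and in Tfam KO Lgals3 (1.88). Of 12 lysosomal genes, 3 rose in Mfn DKO, where 5.23% of all genes did, and 4 in Tfam KO, where 18.1% did. The smallest adjusted p in both belonged to the protease gene Ctsl, which rose from 557.4 ± 65.0 CPM in controls to 2854 ± 684.1 CPM in Mfn DKO and 3412 ± 1557 CPM in Tfam KO (mean ± SD). Hepatocytes also transcribe lysosomal genes, and the cell of origin was not tested. Genes of other cell types moved as well. In Mfn DKO 2 of 9 fibroblast and stellate cell genes rose, the collagen genes Col1a1 (1.27) and Col1a2 (0.67), with the dendritic cell receptor gene Flt3 (1.63) and the hepatocyte enzyme gene Tat (1.33). In Tfam KO Col1a1 (1.46) and Pdgfra (0.53) rose and Reln (-0.27) fell, the endothelial gene Lyve1 (1.91) rose, and the hepatocyte genes Ttr (-1.35), Apoa1 (-1.63) and Cyp2e1 (-1.86) and the T cell gene Cd4 (-2.42) fell. Without replicate 2, Lyve1 (0.55, adjusted p = 0.266 by edgeR), Pdgfra (0.30, 0.235), Reln (-0.27, 0.102) and Cd4 (-1.9, 0.163) were not called. The part of these cells in the values of the macrophage genes was not tested.

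Of 24 general macrophage genes, none was called by edgeR for Mfn DKO (median 0.47, 2 without Tfam KO replicate 2 and up to 5 over the alternatives), and 2 rose for Tfam KO (median -0.13), the fractalkine receptor gene Cx3cr1 (1.17) and Cd14 (2.40), a co-receptor for bacterial lipopolysaccharide, while over the alternatives up to 7 were called lower. Cd14 was not called without replicate 2 (0.38, adjusted p = 0.580 by edgeR), where the other 2 Tfam KO livers had 3.57 and 5.32 CPM against 1.95 to 5.24 CPM in the controls, and Cx3cr1 still was (1.18, adjusted p = 0.0163). Of 12 further Kupffer cell genes, Hmox1 alone rose in both (0.96 and 1.43). Of 6 monocyte genes, Ccr2, a chemokine receptor of recruited monocytes, rose in Mfn DKO (0.91), and F13a1 (2.17) and Chil3 (3.73) rose in Tfam KO, neither of them without replicate 2. The neutrophil genes Cxcr2 (1.63) and Mmp8 (1.97) rose in Tfam KO and were likewise not called without that library. Replicate 2 had the highest summed level of neutrophil genes among the livers, 29.9 CPM, and the lowest of MHC class II genes, 32.6 CPM against 132.8 CPM or more in the controls, and the part of this library's cell makeup in its values was not tested.

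**Figure D5:**
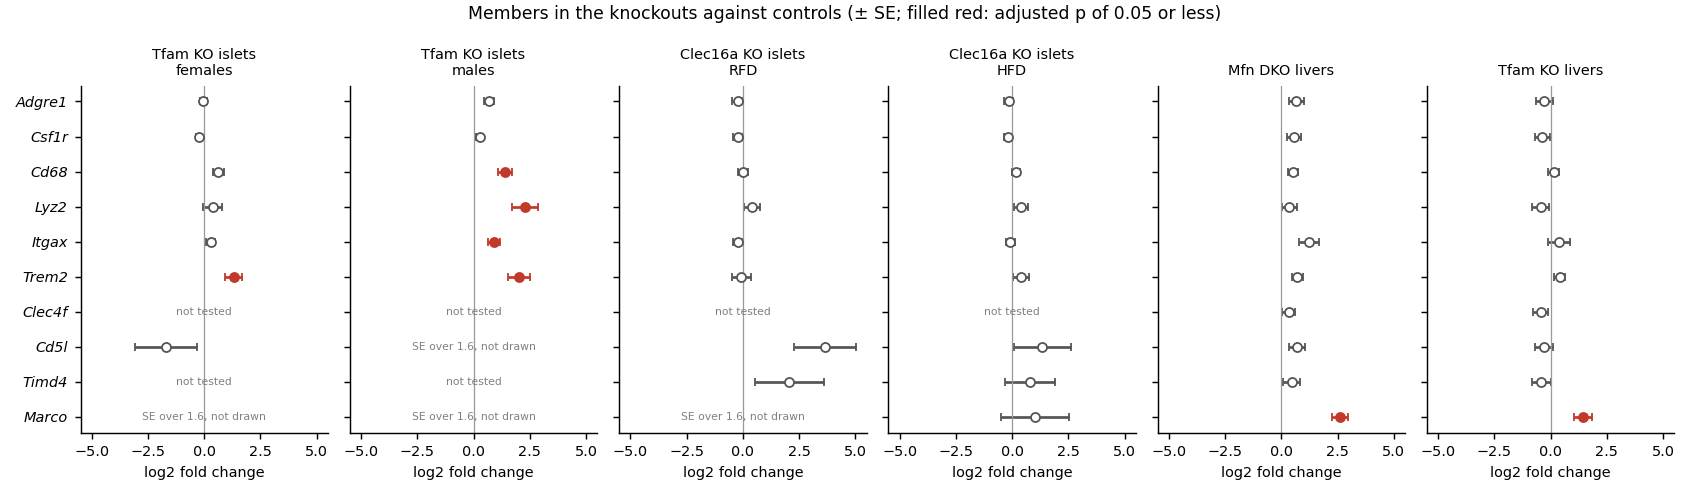
Log2 fold changes of the 10 members ± SE in 6 comparisons of knockouts with controls (horizontal axis log2 fold change, filled red points at an adjusted p of 0.05 or less by edgeR, values with an SE above 1.6 not drawn). Calls lie with Trem2, Cd68, Lyz2 and Itgax in the Tfam islets and with Marco in the livers, and there are none in the Clec16a islets.

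The genes whose pattern over libraries was most like that of the members were found after removing group means, by Pearson correlation with the mean standardised profile of the members; libraries share depth and scaling, and the values describe these libraries only. Over 14 Tfam islet libraries these were Entpd1 (r = 0.96), Dock2, Cyp1b1, Mef2b and Serpina3g, and without control female replicate 3 none of the 5 was among them, the list then being Ets1 (r = 0.93), Ms4a6b, Nipal1, Cerox1 and Gnrh1. Over 19 Clec16a islet libraries they were Csf3r (r = 0.86), a receptor gene of neutrophils, Siglec1, a sialic acid receptor gene of macrophages, B4galt2, BC034090 and Csf2rb2. Over 13 livers they were Abcg3 (r = 0.99), Gzmb, Ctsc, Cd72 and Myo1f, in libraries that also fall apart by Xist.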

How the data were processed

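Libraries of total RNA from islets and livers were sequenced at both ends, per the labels' protocols. The deposited files give raw counts, TPM and CPM per gene, per the file headers. The submitters' processing notes name FastQC, featureCounts, MultiQC, DESeq2, STAR 2.6.1b, RSEM 1.3.1 and GRCm38 without their roles, and the annotation is not given in the sources used here; 55141 of 55487 identifiers were in GENCODE M21. The authors' TPM values were used to set levels side by side, and the authors' CPM equalled count over total.

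Counts were fitted per experiment in edgeR 4.0.16 (R 4.3.3) with TMM scaling, filterByExpr, the quasi-likelihood F-test and p-values adjusted by Benjamini-Hochberg across every gene tested, with 1 mean per group, or genotype plus sex for both sexes together. In all, 12 comparisons were made. Alternatives included DESeq2 1.42.0 and leaving out each library. SE is the log2 fold change over the square root of F. A p-value sets the difference between groups against the spread between libraries, estimated over all groups of the fit. The fit was tested on simulated data. Members, 17 gene lists and tests were chosen with earlier results of these data known. All members were named, and of each list at most the 3 genes with the smallest adjusted p. The values of Gpnmb in Mfn DKO livers were added after they were seen. Floors cover counting error only.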

Additional observations from a re-analysis of the deposited data

Results flagged for a closer look

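In groups of 4 to 10 libraries, 8 values of the members lay apart from the rest of their group by Dixon's criterion, over 74 groups and genes tested, where chance flags about 1 in 20, and genes of 1 library are not independent. Tfam control female replicate 3 accounted for 4 of them: 19.01 CPM of Marco and 1.57 CPM of Timd4, where the other control females were at 0, 32.4 CPM of Lyz2, where the next was at 9.89 CPM, and 0.738 CPM of Cd5l, where the next was at 0.0362 CPM. In the Clec16a islets, control RFD replicate 4 had 10.9 CPM of Marco with the other 3 at 0, and control HFD replicate 4 had 3.23 CPM with the next at 0.918 CPM. Lyz2 reached 41.0 CPM in control HFD replicate 1, against 18.4 CPM in the next library. Cd5l reached 0.690 CPM in KO HFD replicate 3, against 0.0607 CPM in the next. No group of livers held such a value.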

How the results depend on the processing

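Over 2328 refitted log2 fold changes of the members, 2248 kept their side of the threshold and their called direction, 51 lost a call, 29 gained one and none of the called values changed sign, fits without an adjusted p from DESeq2 being left out. The number of members called varied more. With DESeq2 it was 3 for Tfam islets of both sexes and 5 in males. Adgre1 was gained in males (log2 fold change 0.67, adjusted p = 0.0294 by DESeq2), as it was without control female 3 or 4 or control male 1. With the exocrine score Itgax lost its call in males (adjusted p = 0.0958 by edgeR). For Tfam islets of both sexes (4 called) it was 2 with the replicate block, 5 with no filter on low counts and with no sex term, Lyz2 being gained, and 2 to 4 without 1 library. In females (1 called) it was 2 with no filter on low counts, 0 after adjusting for the exocrine score and 0 to 2 without 1 library. In males (4 called) it was 1 with the replicate block and 0 to 5 without 1 library, a single knockout male then being assumed to vary like the other groups. For Mfn DKO livers (1 called) it was 3 with the DESeq2 Wald test, 4 when only the compared groups were fitted and 1 to 3 without 1 library. For Tfam KO livers (1 called) it was 0 with the replicate block and 0 to 7 without 1 library, and for Tfam KO against Mfn DKO livers (0 called) it was 0 to 6 without 1 library. The cause was not tested. The replicate numbers were not taken as pairs in the reported fits. Same-numbered libraries had a median correlation of residual profiles of 0.0653, -0.0163 and 0.0873 in Tfam islets, Clec16a islets and livers. Other pairs had medians of -0.0121, -0.0123 and -0.0450. In livers 5 of 10 same-numbered pairs were above 0.1, so these medians do not decide whether some libraries were paired. The paired fit with the replicate block changed no other count of members. Over all genes, the count called differed by more than 1.5 times from the reported one in these fits. For Mfn DKO livers (1681) it was 169 with the block, 2870 with DESeq2 and 4338 in a fit of only the compared groups, for Tfam KO livers (4992) 395 with the block and 3228 in a fit of only the compared groups, and for Tfam KO against Mfn DKO livers (50) 6, 1087 with DESeq2 and 7. In Tfam males (1764) it was 2708 with DESeq2, in the sex interaction (0) 34 with DESeq2, 36 with the block and 30 with no filter, and in Clec16a islets on HFD (1652) 975 with the block. For diet in controls (7) it was 54 with DESeq2, 3 with the block, 4 with the exocrine score and 3 with the lane, for diet in KO (2) 42 with DESeq2, 6 with no filter, 0 in a fit of only the compared groups and 0 with the exocrine score, and for the diet interaction (0) 20 with DESeq2. Without 1 library the counts ran from 686 to 3379 for Mfn DKO, 2504 to 7330 for Tfam KO and 24 to 4204 between the knockouts in livers, 1336 to 2626 in Tfam females, 578 to 2541 in males, 523 to 2015 on RFD and 786 to 3369 on HFD. No fit of only the compared groups differed from the reported one for both sexes together, and the lane as a covariate called 0 members in the Clec16a islets. Both of the further choices were added after seeing the data: likeness and list counts without the libraries that stand apart.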
